A study of Mus musculus with 6 samples.

Results

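The 9 genes described here belong to the platelet surface and its ligands: Itgb3, Itga2b, Gp9, Gp5, Gp1ba, Gp1bb, Gp6, Vwf and Pf4. They were followed in 32D cells, a mouse myeloid line that depends on interleukin-3. They were found as the probe sets annotated to each symbol, and where a gene had several, the one brightest on average over the arrays stands for it. Of these 9 genes, 8 have a probe set annotated to them alone, out of 18193 genes with such a probe set on the array. Gp1ba has none in the annotation used here and is not analysed. The tested cells expressed miR-9 and miR-9* (construct label C2-MiR-9, 3 samples), and the control cells carried the empty vector (construct label A1-EV, 3 samples). The medium of both groups was RPMI with serum (10%) and murine interleukin-3 (10 ng/ml), and each sample was hybridised to 1 array. Values are MAS5 signals, a relative brightness scaled so that the trimmed mean of every array is 100. The design text calls the replicates independent without saying how cultures were separated, so p-values measure only the spread between these samples. With 3 arrays a group, precision is limited throughout.

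Platelets and their precursors, the megakaryocytes, bind to damaged vessel walls through a small set of surface receptors. The glycoprotein Ib-IX-V complex, encoded by Gp1ba, Gp1bb, Gp9 and Gp5, catches von Willebrand factor, the product of Vwf. Gp6 encodes the collagen receptor of platelets. Itga2b and Itgb3 encode the chains of the fibrinogen receptor, and Pf4 encodes a chemokine stored in platelet granules. Megakaryocytes share a progenitor and several transcription factors with red cells, among them the product of Gata1. Outside this lineage, Itgb3 pairs with the alpha V chain in many cell types, and Vwf is also made by endothelial cells.

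The 2 strands expressed in the tested cells come from the arms of 1 hairpin. Their RefSeq sequences are shown with the seed, bases 2 to 8, in capitals, because the seed is the part by which a microRNA recognises its targets. The strands have different seeds, and each mature sequence is the same at all 3 mouse loci of build GRCm38.p6 (Mir9-1, Mir9-2 and Mir9-3).
mmu-miR-9-5p: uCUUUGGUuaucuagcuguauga
mmu-miR-9-3p: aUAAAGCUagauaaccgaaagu

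Promoters are shown for Gp9 and Gp5, which moved together in the values given further on, and for Itga2b, which did not pass any test. Each run holds the 250 bases before the annotated start in GRCm38.p6 (RefSeq), on the strand of the gene. Capitals mark GATAA or its reverse complement TTATC, which holds the GATA core of GATA factor motifs, and GGAAG or its reverse complement CTTCC, which holds the GGAA core of ETS factor motifs. Other sequences with these cores are left unmarked and are not counted. The marked motifs do not overlap each other in the runs.
Gp9, chr6:87777820-87778069, plus strand: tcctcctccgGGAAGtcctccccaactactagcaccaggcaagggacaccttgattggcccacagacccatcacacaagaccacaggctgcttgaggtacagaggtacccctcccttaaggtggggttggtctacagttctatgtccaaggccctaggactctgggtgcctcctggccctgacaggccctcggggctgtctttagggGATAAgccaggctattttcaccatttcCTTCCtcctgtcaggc
Gp5, chr16:30310782-30311031, minus strand: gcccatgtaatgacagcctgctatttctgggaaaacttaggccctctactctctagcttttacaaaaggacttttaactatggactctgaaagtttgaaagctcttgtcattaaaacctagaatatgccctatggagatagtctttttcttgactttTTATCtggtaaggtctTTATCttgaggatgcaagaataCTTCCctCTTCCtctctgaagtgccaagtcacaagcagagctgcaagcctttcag
Itga2b, chr11:102469884-102470133, minus strand: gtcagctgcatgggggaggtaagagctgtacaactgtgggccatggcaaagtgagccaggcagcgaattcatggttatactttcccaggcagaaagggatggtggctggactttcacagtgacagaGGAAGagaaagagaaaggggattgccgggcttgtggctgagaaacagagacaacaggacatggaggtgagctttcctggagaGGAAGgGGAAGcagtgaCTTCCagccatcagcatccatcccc

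Gp9 has 1 GATAA match, whose first base lies 43 bases before the start, and Gp5 has 2, at 93 and 77 bases. Itga2b has 0 GATAA matches and 4 GGAAG matches, against 2 GGAAG matches each in Gp9 and Gp5. Of the 9 genes, 7 have a promoter window in the table used. Of these 7, 4 hold GATAA (Gp9, Gp5, Gp1ba and Gp6) and 6 hold GGAAG. Of 32851 windows of the same length over all genes, 22.6% hold GATAA and 64.1% hold GGAAG. A match is only a match of letters in this window.

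Message for the integrin chain Itgb3 was 4.65 to 6.49 times as high with miR-9/9* as with the empty vector within each replicate number. It was also higher for Gp9, Gp5 and Vwf, by smaller factors, whereas Itga2b, the partner chain of Itgb3, differed by under 10% in every pair. Genes were tested with limma on log2(signal + 16), with p-values adjusted over all 10200 genes whose mean log2 value was at least 4.86 (a signal of 13.004), the median over the probe sets. Of the 9 genes, 6 were tested: all 6 had signals above that level on every empty vector array. Without a block 0 of the 6 passed an adjusted p of 0.05, where 0.0588% of all genes did, 0.0196% higher and 0.0392% lower (4.61% had an unadjusted p under 0.05, among them Itgb3, Gp9 and Gp5). With the replicate number as a block, Itgb3, Gp9, Gp5 and Vwf rose, 4 of the 6, and 0 fell, where 2.96% of all genes passed, 1.51% rising and 1.45% falling. With the block 17% of all genes had an unadjusted p under 0.05. The fit without a block was set as the main one, because the labels state no block. Same-numbered arrays deviated together from their group means, so both fits are given. For short, "rose" or "fell" below refers to the fit with the block unless stated. That fit has 2 residual degrees of freedom.

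**Figure D1:**
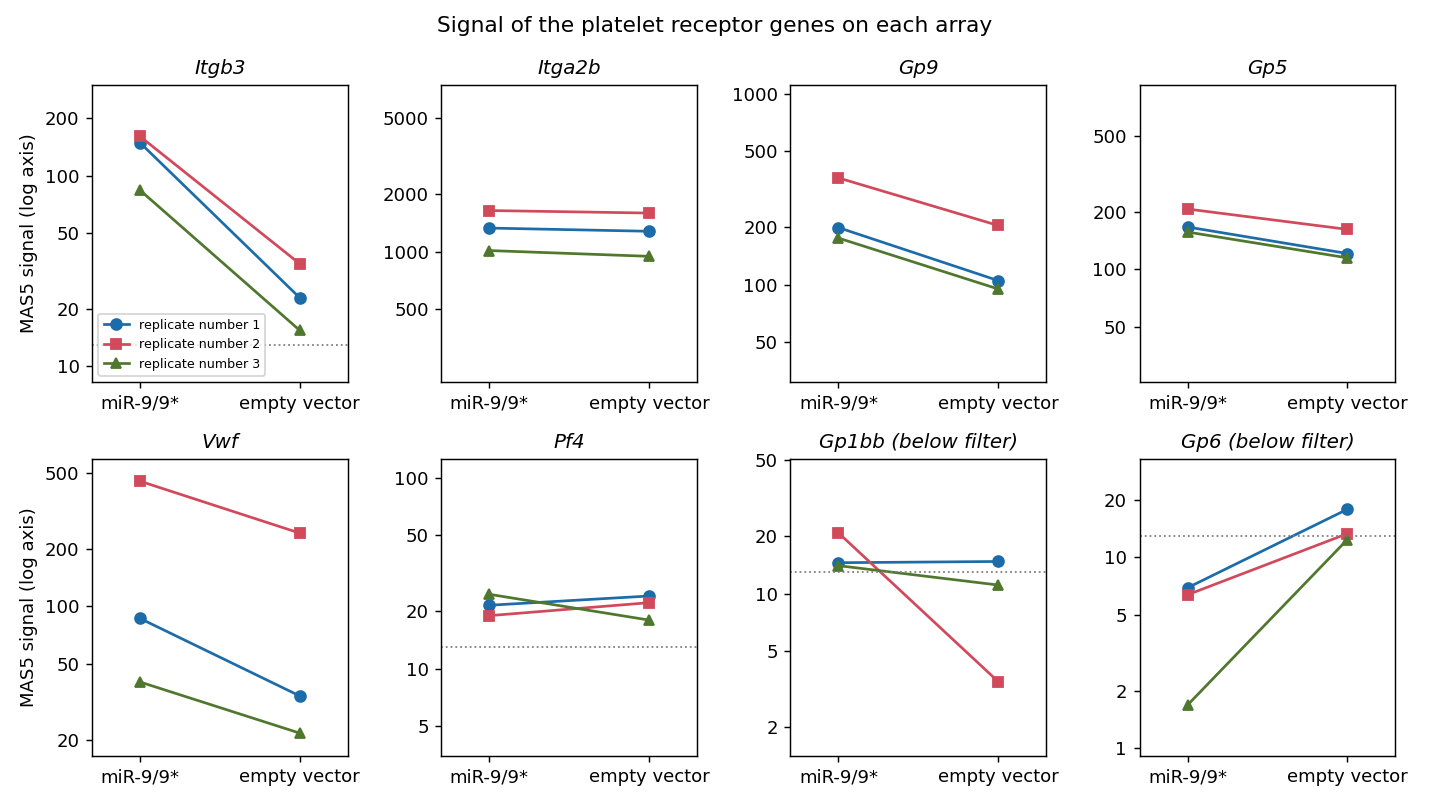
MAS5 signal (log axis, each panel spanning the same fold range) of the 8 measured genes on each array, miR-9/9* left and empty vector right, with lines joining arrays of the same replicate number and a dotted line at the filter level of 13.004 where it falls in the panel. Lines for Itgb3, Gp9, Gp5 and Vwf slope down from miR-9/9* to empty vector in all 3 numbers, those of Itga2b are nearly level, and those of Pf4 cross.

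The fibrinogen receptor chains behaved differently from each other. Itgb3 (probe set 1455257_at) had signals of 149, 161 and 83.8 in miR-9/9* cells of numbers 1, 2 and 3, against 22.9, 34.5 and 15.5 in empty vector cells. The groups did not overlap, as for 5.08% of all tested genes with miR-9/9* on top, and Itgb3 was the only one of the 6 tested genes of which this held. The mean was 131 ± 41.3 in miR-9/9* cells and 24.3 ± 9.61 in empty vector cells (SD, n = 3 each). Within numbers 1, 2 and 3 the signal was 6.49, 4.65 and 5.42 times that of the empty vector. On the scale of log2(signal + 16), which understates the change of dim genes, the log2 fold change was 1.85 (limma with the block, SE 0.123, adjusted p = 0.00051; without it SE 0.254, adjusted p = 0.074). With the block Itgb3 passed in all 13 alternatives, with log2 fold changes from 1.12 at a pseudocount of 64 to 2.40 at a pseudocount of 1. The other probe set of Itgb3, 1421511_at, lay below the filter. Its signals were 11.8, 7.08 and 5.40 in miR-9/9* cells, against 2.61, 1.93 and 7.59 in empty vector cells, so the groups overlapped at this level.

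Itga2b (1417758_at), which encodes the alpha IIb chain and is an early surface marker of megakaryocytes, was bright in both groups. Its signals were 1331, 1645 and 1015 in miR-9/9* cells, against 1280.4, 1595 and 946 in empty vector cells. The groups overlapped over nearly their whole range, with means of 1330.2 ± 315 in miR-9/9* cells and 1274 ± 324 in empty vector cells (SD, n = 3 each). Within the numbers the ratios were 1.04, 1.03 and 1.07. The log2 fold change was 0.066, with a 95% interval from -0.083 to 0.22 with the block (limma, adjusted p = 0.684) and from -0.44 to 0.57 without it. Itgav, the alternative partner of Itgb3, averaged 574 ± 138 in miR-9/9* cells and 541 ± 154 in empty vector cells (log2 fold change 0.092, limma with the block adjusted p = 0.547). So the beta chain rose by a large factor, while neither alpha chain that pairs with it passed the test. The differences between these fold changes were not tested.

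**Figure D2:**
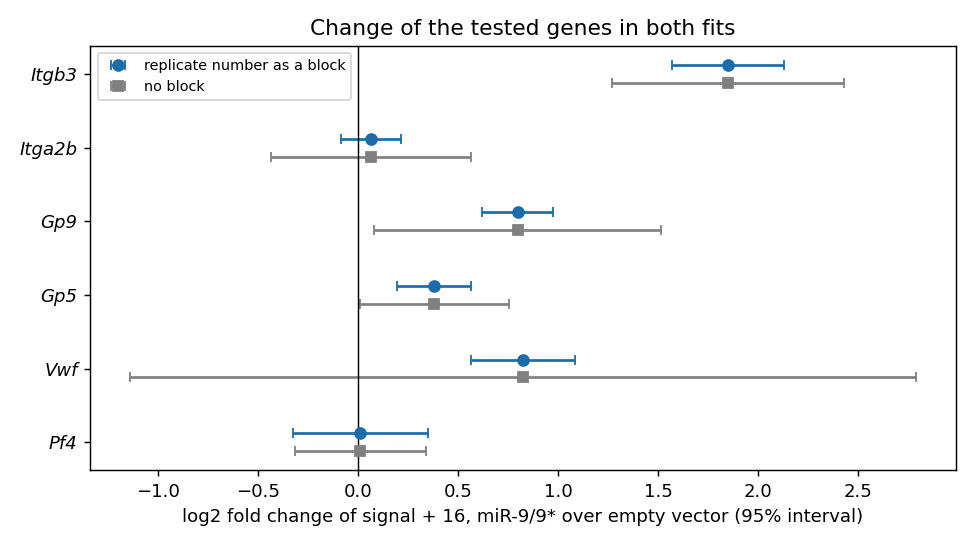
Log2 fold change of signal + 16, miR-9/9* over empty vector, for the 6 tested genes, with 95% intervals from limma with the replicate number as a block (blue circles) and without it (grey squares). The blocked intervals of Itgb3, Gp9, Gp5 and Vwf lie above 0 and those of Itga2b and Pf4 include it, and the unblocked interval of Vwf runs from -1.14 to 2.79.

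In the von Willebrand factor receptor, the small leucine-rich subunit Gp9 (1419720_at) rose. It had signals of 199, 362 and 175 in miR-9/9* cells, against 105, 204 and 94.8 in empty vector cells. The groups overlapped, because the empty vector array of number 2 exceeded the miR-9/9* arrays of numbers 1 and 3. Within numbers 1, 2 and 3 the ratios were 1.90, 1.78 and 1.85, a narrow range beside the spread between numbers. The log2 fold change was 0.80 (limma with the block, SE 0.0783, adjusted p = 0.00194; without it SE 0.315, adjusted p = 0.999). With the block it passed in all 13 alternatives.

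Gp5 (1422817_at), the subunit that thrombin cleaves, had signals of 167, 207 and 157 in miR-9/9* cells, against 121, 162 and 115 in empty vector cells. These groups overlapped only in that the empty vector array of number 2 exceeded the miR-9/9* array of number 3, and the ratios within numbers were 1.38, 1.28 and 1.37. The log2 fold change was 0.38 (limma with the block, SE 0.0823, adjusted p = 0.0448; without it 0.999). This is the weakest of the 4 calls: it passed in 5 of 13 alternatives with the block, and in 0 of the 3 that left out 1 replicate number (adjusted p = 0.0775 to 0.178).

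Gp1bb, the chain that is disulfide-linked to the product of Gp1ba, was dim and was not tested in the fit. Its brighter probe set, 1456427_at, had signals of 14.5, 20.8 and 14.0 in miR-9/9* cells, against 14.7, 3.46 and 11.1 in empty vector cells. The lowest empty vector array is number 2, the number on which Gp9, Gp5 and Vwf were highest. A second probe set of Gp1bb, 1422977_at, gave 1.15 to 6.56 in miR-9/9* cells and 1.97 to 12.3 in empty vector cells. Another, 1452357_at, is annotated to both Septin5 and Gp1bb and stands for neither alone, with 3.43 to 6.78 in miR-9/9* cells and 7.24 to 11.5 in empty vector cells. The first 2 were each higher with miR-9/9* in 2 of 3 pairs, and the one with several symbols in 0 of 3.

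Gp6 (1446554_at), the collagen receptor, was also below the filter. Its signals were 6.94, 6.38 and 1.69 in miR-9/9* cells, against 17.9, 13.3 and 12.4 in empty vector cells. All 3 miR-9/9* arrays were lower than all 3 empty vector arrays, opposite to Itgb3. Of the tested genes, 4.73% had groups apart in this direction. An exact permutation test over the 6 samples (two-sided, on log2 values) gave p = 0.1, the smallest that 3 against 3 allows. When the filter was dropped, limma gave an adjusted p of 0.194 with the block and 0.744 without it.

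Vwf (1435386_at), the ligand of the Ib-IX-V complex, had signals of 86.3, 452 and 40.1 in miR-9/9* cells, against 33.9, 242 and 21.6 in empty vector cells. The arrays of number 2 stood far above the others in both groups, and the groups overlapped. Within numbers 1, 2 and 3 the ratios were 2.55, 1.87 and 1.85. The log2 fold change was 0.82 (limma with the block, SE 0.116, adjusted p = 0.00784; without it SE 0.864, adjusted p = 0.999). With the block but without number 2 it was 0.81 (adjusted p = 0.0304), and the call was lost without a filter (0.0562) and without a variance trend (0.0581). Without a block, leaving out miR-9/9* replicate 2 alone turned the log2 fold change to -0.051.

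Pf4 (1448995_at), whose message is abundant in mature megakaryocytes, was dim. Its signals were 21.5, 19.0 and 24.6 in miR-9/9* cells, against 24.1, 22.2 and 18.0 in empty vector cells. The pairs had both signs, with 1 of 3 higher, and the log2 fold change was 0.011 (95% interval with the block from -0.33 to 0.35, limma adjusted p = 0.983). Ppbp, another platelet chemokine gene, stayed below the filter, at no more than 4.64 in miR-9/9* cells and 10.7 in empty vector cells.

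Of the 6 tested genes, 5 were higher with miR-9/9* in 3 of 3 pairs, as were 21% of all tested genes. The same 5, Itgb3, Itga2b, Gp9, Gp5 and Vwf, also shared an order of the replicate numbers in both groups: number 2 was highest and number 3 lowest. This order in both groups was found for 12.2% of all tested genes, 1246 of 10200. For Itga2b, 98.6% of the sum of squares of the log2 values over the 6 arrays lay between replicate numbers and 1.25% between miR-9/9* and empty vector. For Vwf these shares were 89.8% and 9.72%, for Gp9 54.2% and 45.8%, and for Gp5 46.0% and 53.5%. Itgb3 was the reverse of Itga2b, with 10.3% between numbers and 89.0% between miR-9/9* and empty vector. In Pf4 85.0% lay in neither.

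**Figure D3:**
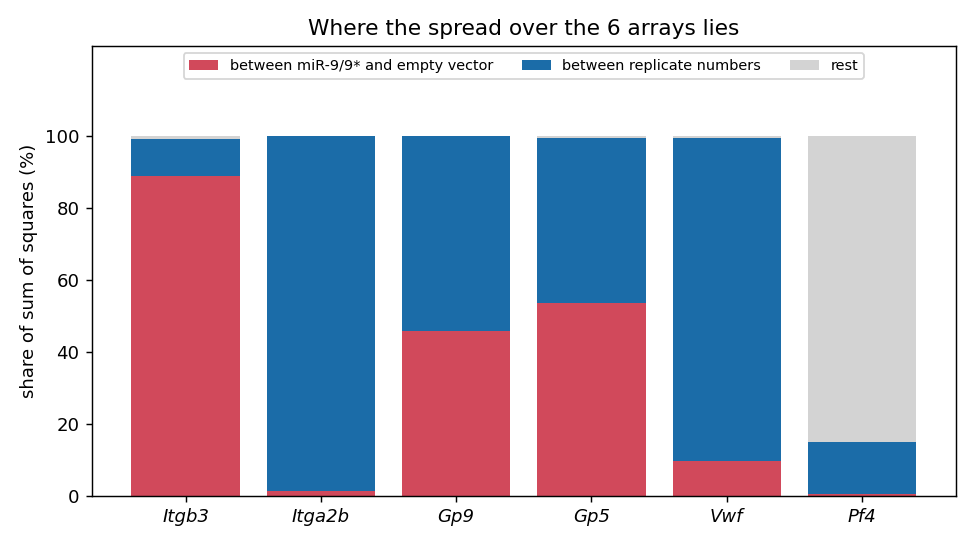
Share of the sum of squares of log2(signal + 16) over the 6 arrays (percent, stacked to 100) that lies between miR-9/9* and empty vector (red), between replicate numbers (blue) and in the rest (grey). Red fills 89.0% of the bar of Itgb3 and 1.25% of that of Itga2b, and the rest fills most of the bar of Pf4 only.

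Other receptors of platelets were read beside these genes. Of 25 further surface receptor genes, 14 were tested, and 0 rose and 1 fell in limma with the block, against 1.51% and 1.45% of all tested genes. At an unadjusted p under 0.05 with the block, 2 were higher and 2 lower, against 17% of all tested genes in either direction. The median log2 fold change of the 14 was 0.055, against 0.0092 over all tested genes. The gene that fell was Itga6, a laminin receptor chain, at 378 ± 121 in miR-9/9* cells and 500.1 ± 119 in empty vector cells (log2 fold change -0.41, limma with the block adjusted p = 0.0167; without it 0.999). The thrombin receptor gene F2r averaged 5248 ± 289 in miR-9/9* cells and 4762 ± 397 in empty vector cells, and Selp, the granule membrane protein P-selectin, 48.2 ± 23.7 and 52.7 ± 20.1, and neither passed. Clec1b, P2ry12, Cd36 and Tbxa2r lay below the filter.

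Among 20 genes of granule and secreted platelet proteins, 11 were tested, of which 2 rose and 2 fell with the block (median log2 fold change -0.031). Of all tested genes 1.51% rose and 1.45% fell. F13a1, which encodes the enzyme subunit of the clot-stabilising factor XIII, rose to 374 ± 35.0 in miR-9/9* cells, against 183 ± 12.2 in empty vector cells (log2 fold change 0.97; limma adjusted p = 0.00051 with the block and 0.0434 without it). Clu, encoding the secreted chaperone clusterin, rose to 182 ± 92.4 in miR-9/9* cells, against 67.1 ± 5.18 in empty vector cells (1.16, block adjusted p = 0.00996; without it 0.469). Angpt1, a growth factor for vessels, and Tgfb1 fell, with log2 fold changes of -0.38 and -0.40 (limma adjusted p with the block 0.0217 and 0.0304; without it 0.999 and 0.725). F13a1 and Tgfb1 are made by other myeloid cells too.

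In the group for cytoskeleton and integrin activation, 19 of 22 genes were tested, 1 rose and 4 fell with the block, Rap1gap counted among them, with a median of 0.090. The shares of all tested genes that rose and fell were 1.51% and 1.45%. The small GTPase Rap1 activates the fibrinogen receptor. Rap1gap, which turns Rap1 off, was at 3.27 ± 1.48 in miR-9/9* cells and 31.6 ± 4.46 in empty vector cells (log2 fold change -1.30, limma with the block adjusted p = 0.00492; without it 0.0431). It passed the filter only through the empty vector arrays: the 3 miR-9/9* values all lay below the filter level, so it had to differ and its p-values support no call. Rasgrp2, which turns Rap1 on in platelets, was at 142 ± 24.6 in miR-9/9* cells and 220.2 ± 53.2 in empty vector cells (-0.57, block adjusted p = 0.00894; without it 0.85). Myh9, the non-muscle myosin heavy chain of platelets, and Vcl, vinculin, fell by 0.60 and 0.45 (block adjusted p = 0.00658 and 0.0316; without it 0.371 and 0.804). Plek, encoding the platelet kinase substrate pleckstrin, rose by 0.75 (block adjusted p = 0.0176; without it 0.957). Tubb1, the beta tubulin of platelets, averaged 179 ± 37.6 in miR-9/9* cells and 162 ± 42.9 in empty vector cells and did not pass (0.15, block adjusted p = 0.407).

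Of 21 megakaryocyte transcription factor genes, 18 were tested (median log2 fold change 0.12). In limma with the block 4 rose and 1 fell, against 1.51% and 1.45% of all tested genes. Without it 0 passed and 4 had an unadjusted p under 0.05, against 4.61% of all tested genes. Gata1 rose to 894 ± 117 in miR-9/9* cells, against 622 ± 99.2 in empty vector cells (0.52, limma with the block adjusted p = 0.00674; without it 0.692). Its cofactor Zfpm1, at 524 ± 56.3 in miR-9/9* cells and 382 ± 32.1 in empty vector cells, rose by 0.44, and Tal1 by 0.44 as well (block adjusted p = 0.0405 and 0.0245; without it 0.625 and 0.619). Klf1 rose by 0.80 (block adjusted p = 0.0147; without it 0.999), a factor that is known for the red cell and not the megakaryocyte fate. Erg, an ETS factor, fell by 0.74 (block adjusted p = 0.00653; without it 0.995). Fli1, the ETS factor that acts at several platelet glycoprotein genes, was at 754 ± 228 in miR-9/9* cells and 745 ± 124 in empty vector cells (-0.0098, block adjusted p = 0.98). Nfe2, needed for platelet release, was at 881 ± 163 in miR-9/9* cells and 909 ± 195 in empty vector cells (-0.037, adjusted p with the block 0.851).

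**Figure D4:**
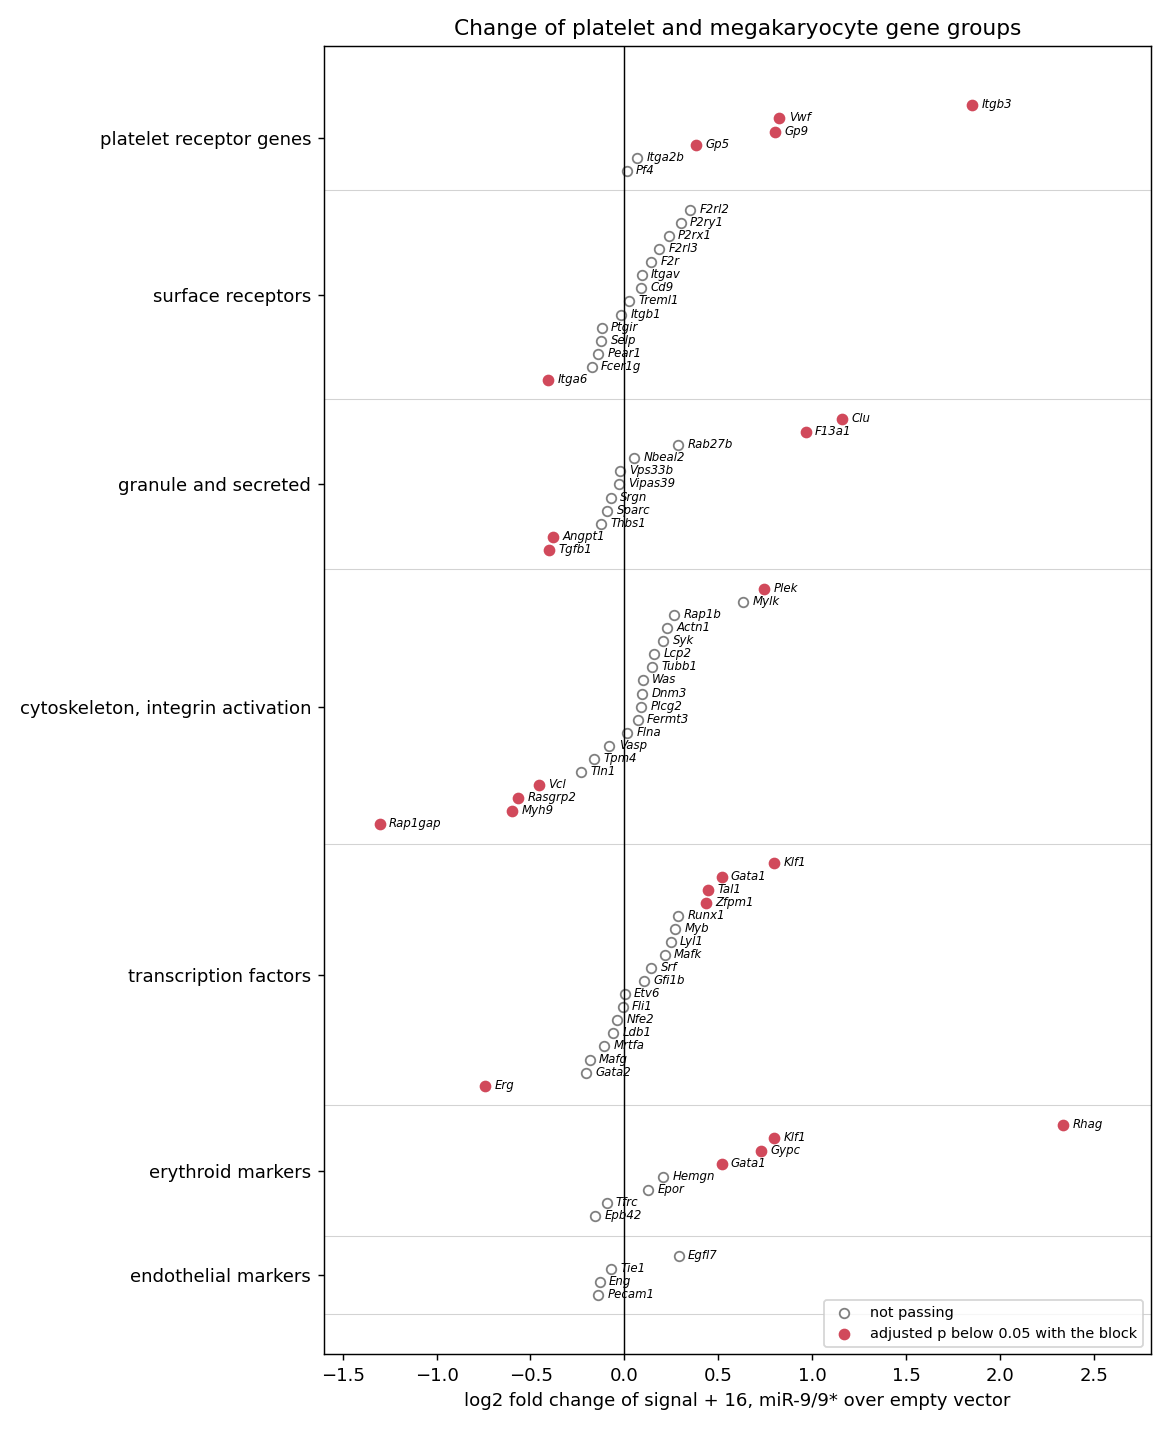
Log2 fold change of signal + 16, miR-9/9* over empty vector, of every tested gene in 7 lists, 1 gene per row in each list, with filled points for an adjusted p below 0.05 with the replicate number as a block. Of the platelet receptor genes 4 of 6 are filled, all to the right of 0, the only filled point of the receptor list lies to the left, the granule, cytoskeleton and transcription factor lists hold filled points on both sides, and the endothelial list holds 0.

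Markers of other cell types were read beside these values. Of 13 erythroid markers, 8 were tested, with a median log2 fold change of 0.36. With the block 4 of the 8 rose and 0 fell, where 1.51% of all tested genes rose and 1.45% fell. The 4 are Gata1 and Klf1, which are also among the transcription factors above, Gypc, and Rhag, a membrane protein of red cells, at 417 ± 77.0 in miR-9/9* cells and 75.3 ± 38.0 in empty vector cells (log2 fold change 2.33, limma with the block adjusted p = 0.000495; without it 0.074). The summed signal of the 11 erythroid markers with a probe set was 4429 to 4518 in miR-9/9* cells, against 3123 to 4320 in empty vector cells. Tfrc alone made up 1721 to 2012 of it in miR-9/9* cells and 1515 to 2638 in empty vector cells. The sum had the order of Tfrc over the empty vector arrays only. Over the miR-9/9* arrays it was highest on number 1, where Tfrc was lowest. Alas2 and Slc4a1, defining genes of the red cell, were at or below 6.28 on every array. The part of the erythroid markers in the rise of Itgb3, Gp9, Gp5 and Vwf was not tested. In RNA from whole cultures, a change in the number of cells of a type and in the RNA per cell cannot be told apart.

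Endothelial markers, which bear on Vwf, were mostly below the filter. Of 12 genes, 8 lay below the filter, at no more than 18.7 on any array, among them Cdh5, Kdr, Tek and Cldn5. Of the other 4, 0 passed in limma. Of these, 1, Egfl7, had an unadjusted p under 0.05 with the block, as did 17% of all tested genes. Egfl7 was at 104.45 ± 39.8 in miR-9/9* cells and 82.3 ± 29.98 in empty vector cells. The summed signal of all 12 was 288 to 584 in miR-9/9* cells, against 259 to 578 in empty vector cells. Tie1 was highest on both arrays of number 2, at 82.3 in miR-9/9* cells and 85.0 in empty vector cells, the arrays on which Vwf was highest. So were Eng and Egfl7, but not Pecam1, whose highest miR-9/9* array was number 1. The order with number 2 highest and number 3 lowest in both groups was found for 12.2% of all tested genes. A link of these genes to Vwf was not tested. The brightest of the list, Pecam1, is also made by platelets and leukocytes, and averaged 197 ± 80.0 in miR-9/9* cells and 222 ± 97.3 in empty vector cells.

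Other lineage markers gave a mixed picture. Of 3 tested eosinophil markers, 2 rose (Siglecf and Prg2), with the block only. Of 7 tested neutrophil markers, 3 fell (S100a8, S100a9 and Ltf), also with the block only. Of all tested genes 1.51% rose and 1.45% fell. Prg2, S100a8, S100a9 and Ltf each had a signal below the filter level on at least 1 array. Ltf was at 1.23 and 12.4 on the miR-9/9* arrays of numbers 2 and 3. At an unadjusted p under 0.05 in limma with the block, 5 neutrophil markers were lower and 1, Mpo, was higher, against 17% of all tested genes in either direction. Mpo had a log2 fold change of 1.38 and was higher in 2 of 3 pairs (limma with the block adjusted p = 0.0732). Summed eosinophil signal ran from 277 to 3617 in miR-9/9* cells and from 255 to 1376 in empty vector cells. Summed neutrophil signal ran from 1613 to 5541 in miR-9/9* cells and from 1844 to 5308 in empty vector cells. Mast cell, monocyte and lymphoid markers gave 0 calls in limma with or without the block, out of 6, 6 and 1 tested. Of these, 4, 3 and 0 had an unadjusted p under 0.05 with the block, against 17% of all tested genes. In log2 fold change, the mast cell markers Gata2 and Cpa3 were at -0.20 and 0.31, and the median of the 6 tested was 0.39. Of the 4 mast cell markers with an unadjusted p under 0.05, 2 were higher, Cma1 (1.02) and Hdc (0.59). The other 2 were lower, Gata2 and Mcpt8 (-0.59). Cma1, Hdc and Mcpt8 were dim, each with a signal below the filter level on at least 1 array. The macrophage markers Cd68 and Adgre1 were at -0.46 and 0.34, and the T cell marker Cd8a at 0.18. Of 10 markers of interleukin-3 dependent myeloid lines, 8 were tested. With the block 0 rose and 1 fell, against 1.51% and 1.45% of all tested genes. At an unadjusted p under 0.05 in limma with the block, Myb and Mpo were higher and Csf2rb, Il3ra and Cebpa lower. Ptprc, the pan-leukocyte antigen CD45, averaged 1508 ± 40.1 in miR-9/9* cells and 1462 ± 156 in empty vector cells. Csf2rb, a beta chain of the interleukin-3 receptor, averaged 1735 ± 663 and 2218 ± 844 and fell with the block (log2 fold change -0.35, limma adjusted p = 0.0363, without it 0.999). The stem cell markers Cd34 and Kit lay below the filter, at no more than 14.0 on any array.

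The genes most like Itgb3 over the 6 arrays, by Pearson correlation of log2 values, were Ube2j1 (0.998), Fem1b (0.990), S100a4 (0.983), F13a1 (0.981) and Prkcz (0.979). All 5 had groups that did not overlap, with miR-9/9* on top. Itgb3 has this pattern itself, so it follows from how the 5 were picked. Of them, F13a1 and Fem1b passed with the block, Fem1b with a log2 fold change of 0.34 (limma adjusted p = 0.0343; without the block 0.757). The 5 genes most like Gp9 were Mtarc2 (0.996), Pccb (0.991), Gpbp1 (0.989), Thumpd2 (0.986) and Nlrp10 (0.985), all with overlapping groups and the highest array of each group in number 2. These traits are those of Gp9 and likewise follow from the choice. Gpbp1 passed with the block (0.34, limma adjusted p = 0.0302; without the block 0.999). These correlations describe 6 arrays and were picked as the highest of 10200 genes, so they carry no p-value.

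Over all arrays, median signals ran from 12.9 to 15.2 in miR-9/9* cells and from 11.99 to 14.5 in empty vector cells. Spearman correlations between arrays over all probe sets ran from 0.919 to 0.942, and 0 arrays held identical values. In all, 154 genes rose and 148 fell with the block, against 2 and 4 without it.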

How the data were processed

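Messenger RNA of 6 samples of 32D cells was measured on 1-colour arrays, grouped by construct, with the replicate numbers that the titles give. The deposited values are MAS5 signal intensities on a linear scale, per the submitters' processing notes, which name no version. The trimmed mean (2% off each end) is 100 on every array. Detection calls were not used. Of 45101 probe sets, 34945 carry 1 gene symbol and 932 several, by the platform annotation, which can be old, and 34741 of the former matched a RefSeq gene by Entrez ID. A probe set with several symbols names no gene.

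Tests were run on log2(signal + 16), with no normalization added. The two-sided test was that of limma 3.58.1 (R 4.3.3), with eBayes fitting a variance trend, and p-values were adjusted by Benjamini-Hochberg over the 10200 genes tested. The fit without a block has 4 residual degrees of freedom. Deviations of same-numbered arrays from their group means correlated across genes at 0.491, 0.616 and 0.681, above the limit of 0.1 for every number, so the numbers were taken to pair the samples, on the data and not the labels. The code was tested on simulated data. The members, the lists and the tests were chosen with earlier results of these data known. All members were named, as were up to 4 passing genes of each list (otherwise the 2 brightest), some lineage genes fixed by name (1 of them is not reported here), and the 5 genes most like Itgb3 and Gp9. Vcl and Zfpm1, which passed, and the other genes named as below the filter or not passing were chosen after their values were seen. The settings varied were the pseudocount, the filter, the normalization, the variance model, array weights, the choice of probe set and the arrays included.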

Additional observations from a re-analysis of the deposited data

How the results depend on the processing

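Without a block the number of genes passing was 6 as reported, 302 with the replicate block, 26 with array weights, 3 without a variance trend, 2 with a pseudocount of 1, 2 with probe sets as units, and 0 without a filter (limma, 892 with an unadjusted p under 0.05). Leaving out 1 array gave 0 to 7 genes: 0 when empty vector replicate 1 was dropped (limma, 399 at unadjusted p under 0.05), 1 without miR-9/9* replicate 1 or 2, and 2 without empty vector replicate 2 or 3. With the block it was 74 without a filter and 38 without a variance trend, and 162 to 356 when a replicate number was left out, the lowest without number 1. Of the platelet receptor genes, 0 passed as reported and 4 with the replicate block. Only Itgb3 passed, as 1 gene, with array weights, with arrays centred on their medians, with quantile normalization and without miR-9/9* replicate 3 (adjusted p = 0.00751, 0.0483, 0.0472 and 0.0269), and leaving out other arrays gave 0. With the block 2 passed without a filter and 2 without a variance trend, Itgb3 and Gp9, and 3 when any replicate number was left out. No value that changed sign had passed in its own fit; Vwf, which passed with the block, kept its sign there. Without the block, leaving out 1 array moved Itga2b from -0.13 to 0.25, Vwf from -0.051 to 1.68 and Pf4 from -0.056 to 0.064. Pf4 was also at -0.055 with array weights, -0.0090 with arrays centred on their medians and -0.011 with quantile normalization, the last 2 with or without the block, and from -0.11 to 0.080 when a replicate number was left out with the block. The cause of these changes was not tested. Gp6, Gp1bb and the second probe set of Itgb3 lie near or below the filter level, where the signal limits what can be read.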
